A study of Mus musculus with 2 samples.

Results

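The adhesion G protein-coupled receptor genes were described by their H3K27me3 peaks in mouse sciatic nerve. Members were all protein-coding genes of the RefSeq table for GRCm38.p6, the assembly also called mm10, whose symbol is Adgr followed by 1 family letter (A, B, C, D, E, F, G, L or V) and a number. This gave 27 of 21887 protein-coding genes, on 12 chromosomes. The pseudogene Adgrd2-ps was not a member because it is not protein-coding, and the family C genes were not members because their symbols are Celsr1, Celsr2 and Celsr3. The study sequenced 1 H3K27me3 ChIP library and 1 input library, both made from the sciatic nerve of C57/BL6 males at 8 weeks of age. Whole nerve was used, so Schwann cells, fibroblasts, vessels and immune cells all contributed chromatin, and the labels do not say how many animals were pooled. The 1 deposited file is a list of peaks for the ChIP library, and input values were not analysed here.

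H3K27me3 is the histone mark written by the Polycomb repressive complex, and it is known from many tissues as a mark of genes held silent. Adhesion G protein-coupled receptors carry a long extracellular part joined to a membrane-spanning core, and many cut themselves between these parts so that a hidden tethered peptide can activate the core. In peripheral nerve the best known member is Adgrg6 (Gpr126), which raises cyclic AMP in Schwann cells and is needed for them to start myelination. Other members are known from neurons (Adgrb and Adgrl families), macrophages (Adgre1, the F4/80 antigen), endothelium (Adgra2, Adgrl4) and sensory hair cells (Adgrv1).

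The starts of 20 members are listed in a RefSeq table of promoter windows (GRCm38.p6), each window reaching from 250 bases before a transcript start to 50 bases after it. Adgra2, Adgrb1, Adgrd1, Adgre1, Adgre5, Adgrf2 and Adgrf3 are without an entry. The 250 bases before the most 5′ listed start are printed here for 6 members, because CpG dinucleotides near starts are the sequence feature with which Polycomb marks are most often associated. The first 3 genes hold a peak and the last 3 do not, and capitals mark each CpG. In the order shown they lie at Adgrv1 chr13:81633145-81633394 (minus strand), Adgrb2 chr4:129984620-129984869 (plus strand), Adgrl3 chr5:81020321-81020570 (plus strand), Adgrg6 chr10:14545037-14545286 (minus strand), Adgrb3 chr1:25829708-25829957 (minus strand) and Adgre4 chr17:55749734-55749983 (plus strand).
Adgrv1: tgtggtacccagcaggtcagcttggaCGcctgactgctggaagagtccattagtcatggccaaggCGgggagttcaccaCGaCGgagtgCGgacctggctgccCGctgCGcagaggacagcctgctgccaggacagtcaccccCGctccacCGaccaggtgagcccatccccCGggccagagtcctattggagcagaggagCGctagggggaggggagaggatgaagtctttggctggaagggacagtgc
Adgrb2: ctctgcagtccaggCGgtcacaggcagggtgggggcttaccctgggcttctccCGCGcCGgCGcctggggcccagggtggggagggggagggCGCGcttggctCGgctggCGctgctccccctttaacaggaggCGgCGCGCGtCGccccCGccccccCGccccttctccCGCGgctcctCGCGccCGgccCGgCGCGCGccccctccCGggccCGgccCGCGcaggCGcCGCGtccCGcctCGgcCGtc
Adgrl3: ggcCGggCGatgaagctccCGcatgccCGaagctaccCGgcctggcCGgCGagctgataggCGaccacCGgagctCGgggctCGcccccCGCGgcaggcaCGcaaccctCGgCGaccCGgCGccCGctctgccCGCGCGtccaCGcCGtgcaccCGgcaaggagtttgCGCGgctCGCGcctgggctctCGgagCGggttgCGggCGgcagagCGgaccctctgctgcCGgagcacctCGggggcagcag
Adgrg6: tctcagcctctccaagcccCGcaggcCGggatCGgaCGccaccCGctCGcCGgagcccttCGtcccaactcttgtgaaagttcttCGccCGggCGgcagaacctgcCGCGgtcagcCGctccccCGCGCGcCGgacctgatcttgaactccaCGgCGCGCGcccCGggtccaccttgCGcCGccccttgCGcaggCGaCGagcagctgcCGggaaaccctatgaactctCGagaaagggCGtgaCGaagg
Adgrb3: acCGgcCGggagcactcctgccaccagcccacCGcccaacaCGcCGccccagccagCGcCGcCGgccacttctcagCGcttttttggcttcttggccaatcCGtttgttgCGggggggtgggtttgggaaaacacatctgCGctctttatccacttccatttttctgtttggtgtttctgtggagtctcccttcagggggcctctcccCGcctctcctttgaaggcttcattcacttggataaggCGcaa
Adgre4: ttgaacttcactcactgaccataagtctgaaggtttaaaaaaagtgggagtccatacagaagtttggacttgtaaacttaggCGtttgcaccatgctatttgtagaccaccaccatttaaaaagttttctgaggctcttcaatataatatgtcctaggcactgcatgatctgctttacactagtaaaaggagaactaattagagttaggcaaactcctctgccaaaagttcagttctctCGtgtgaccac

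Of the 27 adhesion receptor genes, 4 held at least 1 H3K27me3 peak in the gene or within 2 kb of it (14.8%, exact 95% interval 4.19 to 33.7%), against 10.5% of all protein-coding genes. They were Adgrb1 and Adgrb2, receptors first known as brain angiogenesis inhibitors, Adgrl3, a latrophilin that binds teneurins and FLRT proteins at synapses, and Adgrv1, the very large receptor of hair cell stereocilia that is altered in Usher syndrome. No peak lay at the other 23 genes, among them Adgrg6. The ChIP was not replicated, so variation between animals is unknown and no test was run. Intervals on reads and on peak density cover counting error only. Those on shares treat genes as independent draws, and neighbouring members are not independent of each other.

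**Figure D1:**
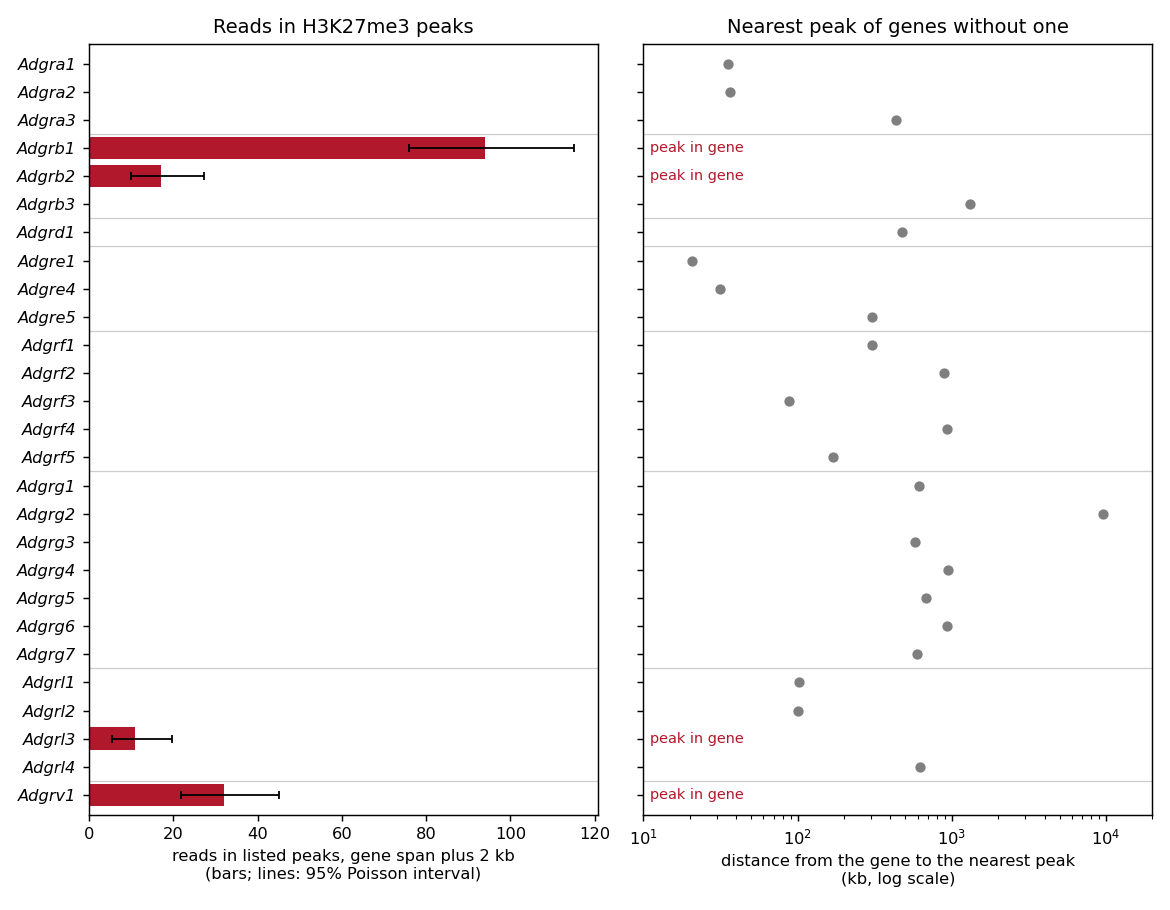
Left: reads in listed peaks (x axis) for each of the 27 genes (rows, grouped by family), with 95% Poisson intervals; genes without a bar have no listed peak. Right: distance in kb, on a log scale, from each gene without a peak to the nearest peak on its chromosome. Adgrb1 has 94 reads, and the other 3 genes with a peak have 11 to 32.

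The 4 genes held 6 peaks with 154 reads in all. The deposited score of a peak is a whole multiple of 2.57 for 99.9% of peaks (within 0.05), and the score divided by that step is given here as reads. What the score measures is not stated in the sources used here, so the read counts and their intervals rest on this reading. The list runs from 10 reads upward, and the rule by which a place was listed is not given. A gene without a peak may thus still carry reads, and the list does not say how many. Over the whole list there were 6018 peaks and 185225 reads, with a median of 14 reads and a width of 643 bp. The 6 peaks of the adhesion receptors had a median of 15.5 reads and a width of 721.5 bp. Their reads per kb ranged from 17.2 to 22.6, against a median of 21.0 over all peaks (quartiles 20 and 23.5). Per kb, 5 of the 6 receptor peaks lay between those quartiles, and the Adgrl3 peak, at 17.2, lay below the lower one.

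Adgrb1, which binds phosphatidylserine on dying cells and is abundant in brain, carried by far the most. Its gene spans 73.3 kb (chr15:74516196-74589465) and held 3 peaks with 94 reads (95% Poisson interval 76.0 to 115). The widest peak, 3052 bp with 69 reads (53.7 to 87.3), began 0.368 kb inside the lower-coordinate edge of the gene (chr15:74516564-74519615). No start is listed for Adgrb1, so this edge was not assigned to its 5′ or 3′ end from the tables. Of all peaks, 91.9% had fewer reads than this one. The remaining 2 peaks lay 48.5 and 52.7 kb into the gene, with 11 reads (5.49 to 19.7) in 500 bp and 14 reads (7.65 to 23.5) in 629 bp. Together the 3 peaks covered 5.41% of the gene and its flanks, and 82.5% of the 2302 protein-coding genes with a peak had fewer reads than Adgrb1.

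Adgrv1 held 1 peak of 1522 bp and 32 reads (21.9 to 45.2; chr13:81631954-81633475). This was the only peak that overlapped any of the 24 listed promoter windows of the family, and it covered the printed Adgrv1 window whole. The gene is 538 kb long, and the peak covered 0.281% of it and its flanks. Of genes with a peak, 55.7% had fewer reads.

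Adgrb2, the paralog of Adgrb1, held 1 peak of 804 bp with 17 reads (9.90 to 27.2; chr4:129985431-129986234). The peak began 561 bp downstream of the listed start, beyond the CpG-dense stretch printed above. Adgrl3 held 1 peak of 639 bp with 11 reads (5.49 to 19.7; chr5:81022130-81022768), 537 bp from the nearest of its 3 listed starts and 3.05 kb inside the annotated edge of a gene 809 kb long. The Poisson interval of Adgrb2 overlaps those of Adgrv1 and Adgrl3, so these neighbours cannot be ranked, while the interval of Adgrb1 lies above those of the other 3 genes. Only Adgrb1 and Adgrv1 hold a peak of at least 20 reads, and the count of members with a peak is 2 at that threshold.

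**Figure D2:**
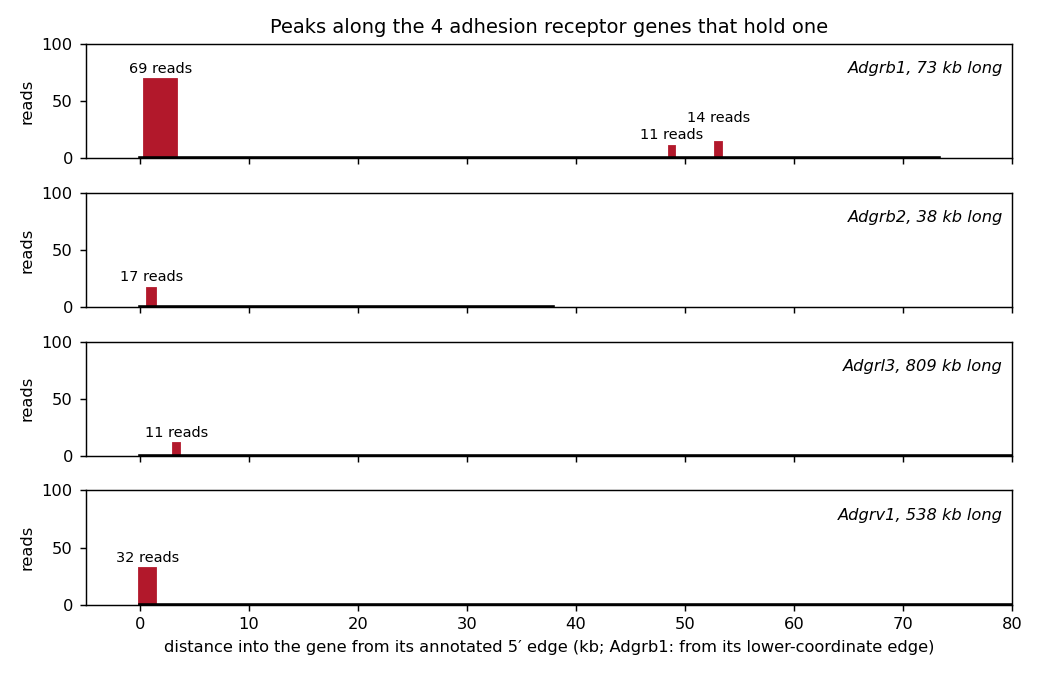
Each panel shows the first 80 kb of 1 gene (black line), with distance from the annotated 5′ edge in kb on the x axis (for Adgrb1, from the lower-coordinate edge) and reads per peak on the y axis; bar width is peak width. The 4 genes each have a peak near that edge, and Adgrb1 has 2 more at 48.5 and 52.7 kb.

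All 4 genes had a peak within 2 kb of a listed start or, for Adgrb1, of an annotated gene edge. By the same rule 8.11% of all protein-coding genes did. This share was 7.48% for genes up to 10 kb, a class that holds no member. Above 10 kb it rose with gene length: it was 6.04% for genes of 10 to 30 kb and 8.39% for 30 to 100 kb. For genes of 100 to 300 kb it was 12.7%, and for those over 300 kb 23.3%. Among 1104 other genes longer than 30 kb that hold a peak, 789 had one there (71.5%). A peak near a listed start or gene edge is thus common to most other long genes that hold a peak. For Adgrb1 that edge is not known to be the start. No other protein-coding gene, with its own 2 kb flanks, reached any of the 6 peaks, so none of them was shared with a neighbour.

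Family by family, peaks were found in B (2 of 3 genes), L (1 of 4) and V (1 of 1), and in none of the genes of A (3), D (1), E (3), F (5) and G (7). In family B the odd one out was Adgrb3, a receptor for C1q-like proteins at synapses, which at 767 kb is a gene longer than all members but Adgrl3 and had its nearest peak 1305 kb away. In family L the latrophilins Adgrl1 (nearest peak 102 kb away) and Adgrl2 (101 kb) and the endothelial receptor Adgrl4 (620 kb) were without a peak. With 1 to 7 genes a family, these counts do not separate the families from one another.

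Adgrg6, the Schwann cell receptor, had no peak in its 143 kb (chr10:14402583-14545723), and its nearest peak lay 928 kb away at Phactr2, with 23 reads. The other 6 genes of family G also held none. Adgrg1, which acts in myelinating glia and the developing cortex, lies in 1 locus with Adgrg3 and Adgrg5, with gaps of 2.91 and 31.5 kb between genes, and the nearest peak to this locus was 579 kb away with 15 reads. Adgrg7 had its nearest peak at 595 kb. Adgrg2, known from fluid uptake in the male efferent ducts, and Adgrg4 are X-linked, and the list holds 31 peaks on the whole X chromosome. Their nearest peaks were 9506 and 939 kb away. Of X-linked protein-coding genes, 1.55% held a peak by the rule used here.

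Family E, whose members are expressed by leukocytes, held no peak. Adgre1 was 20.7 kb from a peak of 10 reads, the smallest distance among the 23 genes, Adgre4 was 31.4 kb from one of 17 reads, and Adgre5 (CD97) was 303 kb away. In family A, the Wnt7 co-receptor Adgra2 was 36.4 kb from a peak at Rab11fip1, Adgra1 was 35.4 kb from one at Kndc1, and Adgra3 was 435 kb from one. The F genes Adgrf1, Adgrf2, Adgrf4 and Adgrf5, the last of which controls lung surfactant, lie on chromosome 17 and share 1 nearest peak of 11 reads at Tdrd6, at 171 to 933 kb. Adgrf3 was 87.7 kb, and Adgrd1 477 kb, from a peak. Of the 23 genes, 18 (78.3%) lay over 100 kb from any peak, and 72.0% of 19562 other genes without a peak did. Median distances were 477 kb for the adhesion receptors and 258 kb for those other genes.

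Gene length matters for such counts, since a longer gene meets more peaks, and adhesion receptor genes are long. Their median length was 73.3 kb (range 12.3 to 809 kb), against 17.2 kb for all protein-coding genes. Peaks were present at 0 of 4 members of 10 to 30 kb, against 8.3% of all protein-coding genes of that length. They were present at 2 of 13 members of 30 to 100 kb, against 11.3% of all such genes, and at 0 of 7 members of 100 to 300 kb, against 17.6%. Of the 3 members over 300 kb, 2 held a peak (Adgrl3 and Adgrv1, but not Adgrb3), against 36.8%. Weighted by the length classes of the members, the share over all protein-coding genes is 15.3%, which corresponds to 4.14 of 27 genes. The observed 4 genes are therefore at the background for genes of these lengths, and the family as a whole is not set apart by its count.

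**Figure D3:**
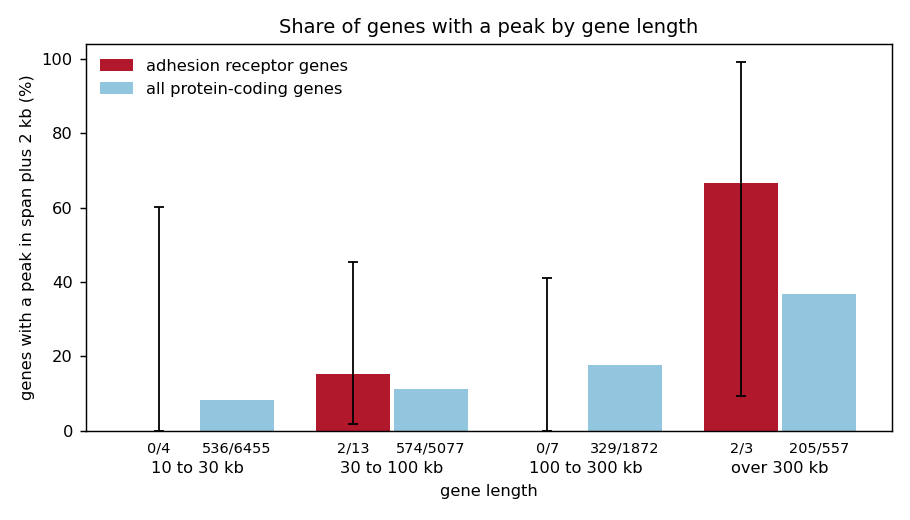
Share of genes with a peak (y axis, percent) by gene length (x axis), for adhesion receptor genes (red, with exact 95% intervals) and all protein-coding genes (blue); numbers under the bars are genes with a peak over genes in the class. The intervals of the receptor genes span the share of all genes in each of the 4 classes.

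By density the result was lower but rests on few peaks. The 6 peaks fell in 3.94 Mb of receptor genes and flanks, or 1.52 per Mb (95% Poisson interval 0.559 to 3.32). Over all protein-coding genes the density was 3.46 per Mb, and over those longer than 30 kb it was 2.29 per Mb, which lies inside that interval. Peaks covered 0.181% of the receptor spans, against 0.458% of all protein-coding spans and 0.249% of those longer than 30 kb.

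Among receptors with a listed promoter window, those with a peak and those without overlapped in CpG content. Adgrb1, which carried the most reads, has no such window and is left out. CpG observed over expected, the CpG count divided by that predicted from the C and G content, was computed in the most 5′ window of 300 bases. It was 0.94 for Adgrl3, 0.90 for Adgrb2 (the median of these 3) and 0.49 for Adgrv1, whose window is the one covered by a peak. Among the 17 unmarked members with a window it ran from 0 (Adgrg4) to 1.08 (Adgrg6), with a median of 0.32. The highest value of all 20 genes thus belonged to Adgrg6, with 38 CpG in 300 bases, and Adgra3 (0.89), Adgrl1 (0.77), Adgrg2 (0.73), Adgra1 (0.69) and Adgrb3 (0.64) also had CpG-rich windows and no peak. At a limit of 0.6, 2 of 8 CpG-rich members had a peak within 2 kb of a start, against 8.67% of all CpG-rich genes, and 1 of 12 CpG-poor members did, against 6.03%. Members as a whole had fewer CpG-rich windows (8 of 20, 40%) than all protein-coding genes in the table (48.4%).

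**Figure D4:**
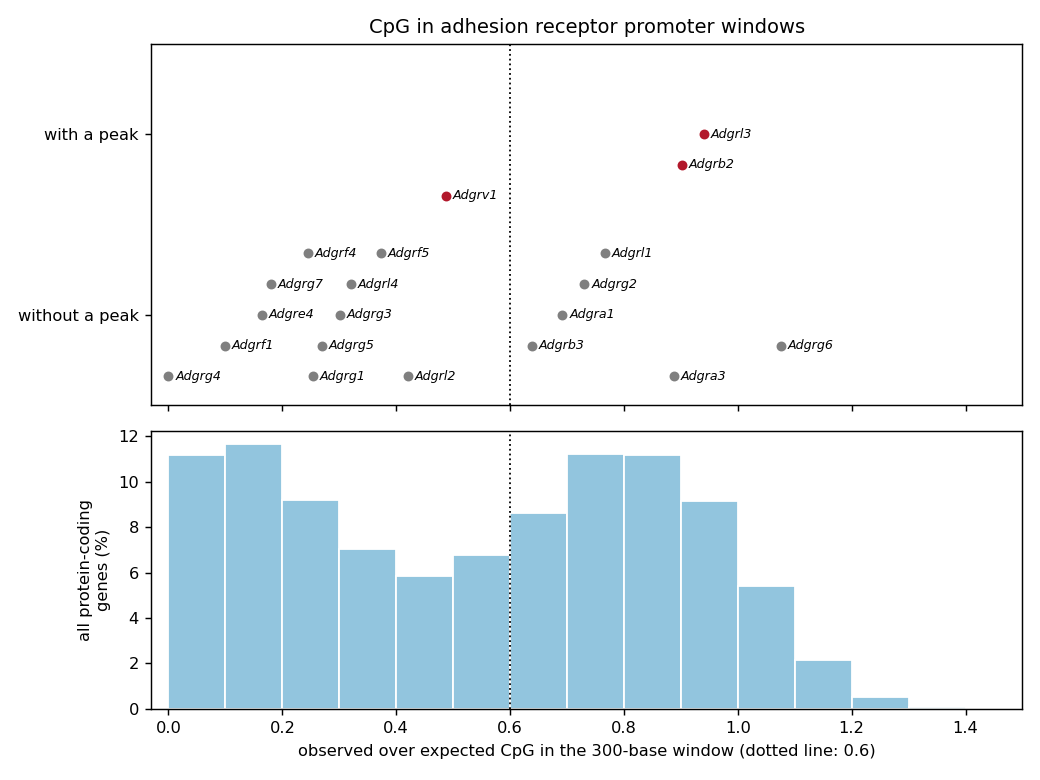
Top: observed over expected CpG (x axis) in the most 5′ promoter window of the 20 listed adhesion receptor genes, those with a peak in red and those without in grey; vertical offsets only separate the names. Bottom: the same measure over 17492 protein-coding genes, in percent of genes per bin. Adgrg6, without a peak, has the highest value (1.08), and Adgrv1, with a peak over its window, has 0.49.

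Genes that work with these receptors were counted from lists written for this purpose. Of the 3 Celsr genes, the family C receptors of planar cell polarity, 2 held a peak (66.7%, 9.43 to 99.2%). Weighted by the length classes of these genes, 11.4% of all protein-coding genes did. Celsr3 held 4 peaks with 99 reads, close to Adgrb1, Celsr1 held 1 peak with 19 reads, and Celsr2 held none. Of 30 ligands and partners, 10 held a peak (33.3%, 17.3 to 52.8%), against 17.4% of all protein-coding genes weighted by the list's length classes. Several of them bind receptors that held no peak. Adgrb3 binds C1q-like proteins, and C1ql2 had 101 reads, C1ql1 95 and C1ql4 54, while C1ql3 had no peak. Adgra2 acts with Wnt7a and Wnt7b, which had 65 and 99 reads, and with Reck, which had none. Latrophilins bind teneurins, FLRT proteins and, through these, Unc5 receptors. Of these genes Tenm4 had 142 reads, Unc5a 31, Flrt2 23 and Unc5d 12, while Tenm1, Tenm2, Tenm3, Flrt1 and Flrt3 had no peak. Prnp, whose product the prion protein activates Adgrg6, and the Adgrg6 ligand genes Col4a1 and Lama2 held none. The remaining listed gene with a peak was Thy1 (20 reads). Unc5d, Thy1 and the genes without a peak were named after their values were seen.

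Signalling genes below the receptors held peaks about as often as other genes of their length. Of 32 G protein and cyclic AMP genes, 5 held a peak (15.6%), against 15.3% of all protein-coding genes weighted by the length classes of this list. Those with a peak at a start were Gnal (23 reads there and 80 in the whole gene), Adcy8 (30 reads) and Pde4a (11 reads), and Gnas (69 reads) and Pde4b (33 reads), named after their values were seen, held one elsewhere in the gene. Of 12 listed genes of Schwann cell development and myelination, some of which act beside or upstream of Adgrg6, 6 held a peak, against 11.7% of all protein-coding genes weighted likewise, 5 of them near a start with 11 to 27 reads. These were the transcription factor genes Pou3f1 (27 reads), Egr2 (18) and Sox10 (11) and the myelin genes Ncmap (22) and Mbp (11). The sixth was the axonal growth factor gene Nrg1 (64 reads, none near a start). A mark in whole nerve can sit in a few cells densely or in many thinly, and these cannot be told apart, so a peak at a gene that Schwann cells express does not show which cells carry it.

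Cell type markers could not serve to check the tissue label, since no RNA was measured, but their peaks show which genes the mark reached. The share of all protein-coding genes with a peak, weighted by the length classes of each list, is given beside each count. Peaks were found at 4 of 11 Schwann cell markers (against 9.69%), which are the Egr2, Sox10, Ncmap and Mbp peaks above. They were found at 1 of 8 macrophage markers (Itgam, 10 reads; against 12.2%), 1 of 6 endothelial markers (Cldn5, 12 reads; against 11.3%) and 1 of 6 fibroblast markers (Pdgfra, 68 reads; against 10.3%). Of 6 neuron markers, 5 held a peak (against 20.3%), namely Rbfox3 with 268 reads, Stmn2 with 39, Syt1 with 17, Tubb3 with 13 and Snap25 with 12. The macrophage marker Adgre1, itself an adhesion receptor, was among those without a peak.

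The adhesion receptor genes were set beside 3 families of transmitter receptors that couple to G proteins, which were added after the files were seen. The share with a peak was 14.8% for the adhesion receptors. Of 31 adrenergic, serotonin, dopamine and muscarinic receptor genes, 19 held a peak (61.3%, 42.2 to 78.2%), against 11.5% of all protein-coding genes weighted by their length classes. These genes are shorter, with a median of 18.7 kb. By family the counts were 7 of 9 adrenergic, 7 of 12 serotonin, and 5 of 10 dopamine and muscarinic genes. The exact interval of the adhesion receptors is 4.19 to 33.7%, and both intervals treat genes as independent draws. The difference was not tested, because genes of 1 library are not replicates. Where a peak was present, the median reads per gene were 24.5 over the 4 adhesion receptors and 31 over the 19 others. Adgrb1, with 94 reads, was close to Adra2c, the highest of those 19, with 96 reads, a gene named after its value was seen.

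**Figure D5:**
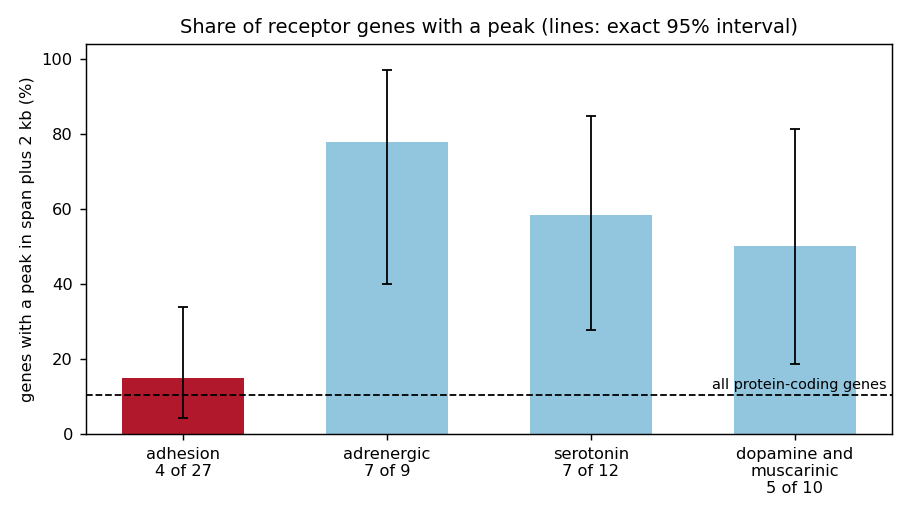
Share of genes with a peak (y axis, percent) in 4 families of receptors that couple to G proteins (x axis), with exact 95% intervals; the dashed line is the share of all protein-coding genes (10.5%). Adhesion receptors stand at 4 of 27, and the other 3 families at 5 of 10 to 7 of 9.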

How the data were processed

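H3K27me3 ChIP DNA and input from sciatic nerve were sequenced. Per the submitters' processing notes, Bowtie and build mm10 were used. For the peak caller, its threshold and its use of the input, nothing is given in the sources used here. In 1 file, the deposited list holds 1 score per peak, given by the authors' processing for 1 ChIP library, with no pooling stated. Scores were divided by their common step and read as reads, with exact Poisson 95% intervals. The lowest peak has 10 reads (4.80 to 18.4).

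A gene held a peak when 1 bp or more overlapped its RefSeq span plus 2 kb. The start rule used 2 kb around listed starts, and either gene edge for the 20.1% of protein-coding genes without one. Reads count whole peaks. Shares carry exact Clopper-Pearson intervals. No test was possible with 1 library. Overlap and step finding were tested on simulated data. Python 3.11.15, pandas 2.3.3 and scipy 1.17.1 were used.

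Members and lists were chosen with earlier results of these data known. The 3 other receptor families were added after the files were seen. Every member is named. Of the lists, genes with a start peak are named, at most 8 a list by reads, and all Celsr genes. Some genes of the lists are not reported here and were left out of the counts of their lists.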

Additional observations from a re-analysis of the deposited data

How the results depend on the processing

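The 4 adhesion receptor genes with a peak were also 4 with the gene span alone, 5 kb flanks, the peak midpoint inside, or peaks in reach of 1 gene only. The shares of all protein-coding genes under these settings were, in that order, 9.77%, 11.7%, 10.3% and 9.28%. The count was 3 when peaks under the median score of 36 were dropped (Adgrl3 lost), against 7.08% of all protein-coding genes. It was also 3 with at least 15 reads, a threshold added after seeing the data, against 6.63%. With at least 20 reads it was 2 (Adgrb1 and Adgrv1), when 5.46% of all protein-coding genes passed. The count by the start rule, which takes either gene edge for Adgrb1, was also 2 at that threshold, against 4.54%. Without a read threshold, the count by the start rule was 4 with windows of 1 and 5 kb, against 7.32% and 9.39% of all protein-coding genes. It was 3 when gene edges replaced listed starts, against 8.6%. At or above the median score, the median member peak had a width of 1163 bp and 24.5 reads, against 1277 bp and 27 reads over all such peaks. The reads in member peaks, their covered share, promoter CpG and the count of 31 of 103 other listed genes moved by less than 1.5 times under the alternatives run. By the main rule, 10.5% of all protein-coding genes held a peak, not weighted by length. The peaks at Adgrl3 and Adgrb2 and the 2 narrower ones inside Adgrb1 rest on 11 to 17 reads each, and a place with under 10 reads is not listed.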
